A study of Mus musculus with 6 samples.

Results

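Nuclei that met a count rule for the second segment (S2) of the proximal tubule were described in snRNA-seq data (single-nucleus RNA sequencing) of mouse kidney cortex. The rule used raw counts of UMIs, the tags that mark single captured RNA molecules. A barcode with at least 300 genes and at most 5% mitochondrial UMIs entered the class when its summed UMIs of Slc22a8, Slco1a1, Cyp2e1 and Cndp1 reached 4. That sum also had to be at least 2 times the sum of the S1 genes (Slc5a12, Slc5a2, Gldc, Prodh2) and of the S3 genes (Cyp7b1, Slc22a19, Bcat1, Mpped1). Barcodes with a UMI of Havcr1, Top2a, Nphs1, Flt1 or Slc12a3, or more than 1 UMI of Slc12a1, were left out. The rule took 4396 of 61939 filtered barcodes, against 4648 for the matching S1 rule and 2788 for the S3 rule. The knockout group held 3 libraries of FVB/N mice with the genotype Podocin-Cre Klf4 fl/fl, in which the recombinase is driven from a gene of podocytes, the filter cells of the glomerulus. The control group held 3 libraries of FVB/N mice that carried the same floxed allele (Klf4 fl/fl) without the recombinase. The deletion was therefore aimed at podocytes and not at the tubule nuclei described here. Neither the labels nor the headers give age, treatment or the number of mice behind a library, so p-values measure the spread between libraries.

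The proximal tubule reclaims most of the filtered glucose, amino acids, phosphate and bicarbonate, and its segments follow each other as S1, S2 and S3. S2 is known for the secretion of organic anions such as drugs and metabolic waste. Slc22a8 and its neighbour Slc22a6 take organic anions up from the blood side, Slco1a1 is an organic anion transporter of the lumen side, Cyp2e1 is a cytochrome P450 and Cndp1 is a peptidase of the carnosine dipeptidase family.

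The 4396 nuclei were spread unevenly over the libraries. Knockout libraries 1, 2 and 3 gave 1153, 209 and 182 nuclei with 2771758, 514275 and 544265 UMIs, and control libraries 1, 2 and 3 gave 2146, 76 and 630 nuclei with 6044615, 196517 and 2126228 UMIs. Median UMIs per nucleus were 2017, 2052 and 2402 in knockout and 2398.5, 2338 and 2920.5 in control libraries. Both libraries numbered 1 stood apart, with 22080 and 21957 barcodes against 3919 to 6079 in the other 4. Their S2-rule nuclei also held a higher median mitochondrial share, at 0.912% in knockout 1 and 2.19% in control 1, against 0.0520 to 0.164% in the other 4 libraries. Only 1 barcode was shared between S2-rule nuclei of different libraries (knockout 1 and control 1). No doublet caller was run, and the exclusion genes of the rule and an alternative without nuclei that held defining genes of other classes stood in for one.

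The label was checked against genes outside the rule, and the check did not set S2 apart from the proximal tubule as a whole. The summed level of 15 genes common to the proximal tubule in S2-rule nuclei was 1.31, 1.25 and 1.46 times that of all filtered barcodes in knockout libraries and 1.18, 1.26 and 1.25 times in control libraries. A list of 8 other genes known from S2 stood at 1.23, 1.20 and 1.25 times in knockout and 1.09, 1.07 and 1.21 times in control libraries. Both lists were thus above the average barcode in each library, but by a small margin. Marker lists of other classes were below the average barcode in each library. Podocyte genes stood at 0.275 to 0.473 times in knockout and 0.39 to 0.514 times in control libraries. Genes of the thick ascending limb stood at 0.251 to 0.386 times and 0.295 to 0.393 times. The rule removed barcodes with a UMI of Nphs1, Flt1 or Slc12a3 and limited Slc12a1. Low levels of those classes were thus set in part by the rule and do not check the label.

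Much of the tubule signal was also present in nuclei that should lack it. Endothelial nuclei, taken as barcodes with at least 2 UMIs of Flt1 (a receptor of blood vessel cells), held the 4 rule genes at 797, 699 and 582 CPM (counts per 1000000 UMIs) in knockout and 1166, 873 and 760 CPM in control libraries. S2-rule nuclei held them at 2299, 2199 and 1891 CPM in knockout and 2360, 2102 and 2010 CPM in control libraries. Before the exclusion genes were applied, 8.46, 5.31 and 6.25% of endothelial nuclei of knockout libraries and 19.7, 5.30 and 9.22% of those of control libraries met the sum and ratio of the S2 rule. These shares were above the share of all barcodes that the full rule, with its exclusions, selected in 5 of the 6 libraries, with control 3 the exception. The 2 shares also differ in depth, since endothelial nuclei were deeper than filtered barcodes in the same 5 libraries. Median UMIs were 5327 against 2123 in control 1, but 1411 against 1819 in control 3. The proximal tubule genes made up 2.46, 2.74 and 3.66% of UMIs in S2-rule nuclei of knockout libraries, against 1.78, 2.02 and 2.42% in endothelial nuclei of the same libraries. In control libraries they made up 2.88, 2.57 and 3.00% in S2-rule nuclei, against 2.26, 2.06 and 1.78% in endothelial nuclei. The nuclei are therefore called S2-rule nuclei, and levels in endothelial nuclei are given beside several genes and lists below. The part of free RNA in the results was not tested.

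Among the most abundant transcripts of S2-rule nuclei were genes of proximal tubule function. Over the 6 libraries, the nuclear RNA Malat1 averaged 72879 CPM and the transcription factor Zbtb20 10077 CPM. The growth hormone receptor Ghr averaged 9649 CPM (lowest 8422, highest 12632). Slc34a1, which reclaims phosphate from the filtrate, averaged 5247 CPM (lowest 4250, highest 6727). Dab2, an adaptor of receptor-mediated endocytosis, averaged 4016 CPM, and the nuclear receptor Esrrg 3908 CPM. Acsm2, an enzyme of medium-chain fatty acid activation, averaged 3197 CPM. UMIs are summed over nuclei here and not scaled to gene length, so levels of different genes are not comparable as molecules per length.

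The rule genes chose the nuclei, so their values are a description with no test. Slco1a1 made up 49.1, 56.9 and 67.4% of the summed rule UMIs in knockout and 42.4, 23.0 and 42.2% in control libraries. Cndp1 made up 13.3, 7.87 and 4.96% in knockout and 17.97, 29.1 and 14.2% in control libraries. For both genes the 2 groups did not overlap, with Slco1a1 the larger share in each knockout library and Cndp1 the smaller. Slc22a8 made up 14.5, 10.1 and 10.0% in knockout and 13.0, 24.5 and 19.4% in control libraries, and Cyp2e1 23.1, 25.2 and 17.6% and 26.6, 23.5 and 24.3%. All 4 genes were seen together in 12.9, 4.78 and 2.20% of S2-rule nuclei of knockout libraries and in 22.1, 18.4 and 18.9% of those of control libraries. The shares are parts of the same sum, so a larger share of any gene lowers the others. Nuclei with larger sums can also show more of the 4 genes together. The median sum was 5 in the knockout libraries and control 2, and 6 in controls 1 and 3. The mix of the 4 genes is therefore only described for these libraries, and a difference between the groups was not tested. At the edge of the rule, 1419 nuclei had a sum of 4, 983 a sum of 5 and 1994 a sum of 6 or more, and 1778 barcodes that met every other condition had a sum of 3.

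S2-rule nuclei were 5.22, 4.11 and 3.00% of filtered barcodes in knockout and 10.9, 1.98 and 12.04% in control libraries. The 2 groups overlapped, since control 2 had the lowest share and controls 1 and 3 the highest. The means were 4.11 ± 1.11% in knockout and 8.31 ± 5.52% in control libraries (SD, n = 3 each), a difference of -4.20 percentage points. The 95% Wilson intervals, which cover counting error only, were 4.94 to 5.53%, 3.600 to 4.69% and 2.60 to 3.46% in knockout libraries and 10.5 to 11.4%, 1.58 to 2.47% and 11.2 to 12.9% in control libraries. After barcodes were thinned to 1000 UMIs before the rule was applied, the shares fell in both groups. The means were then 1.52 ± 0.683% in knockout and 2.96 ± 1.69% in control libraries, a difference of -1.43 points. Barcodes with fewer UMIs were dropped, which left 18644 of 19645 in control 1 but 2082 of 3845 in control 2. Of all barcodes that met a segment rule, S2-rule nuclei were 28.4, 21.2 and 20.7% in knockout and 46.8, 24.1 and 63.1% in control libraries.

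**Figure D1:**
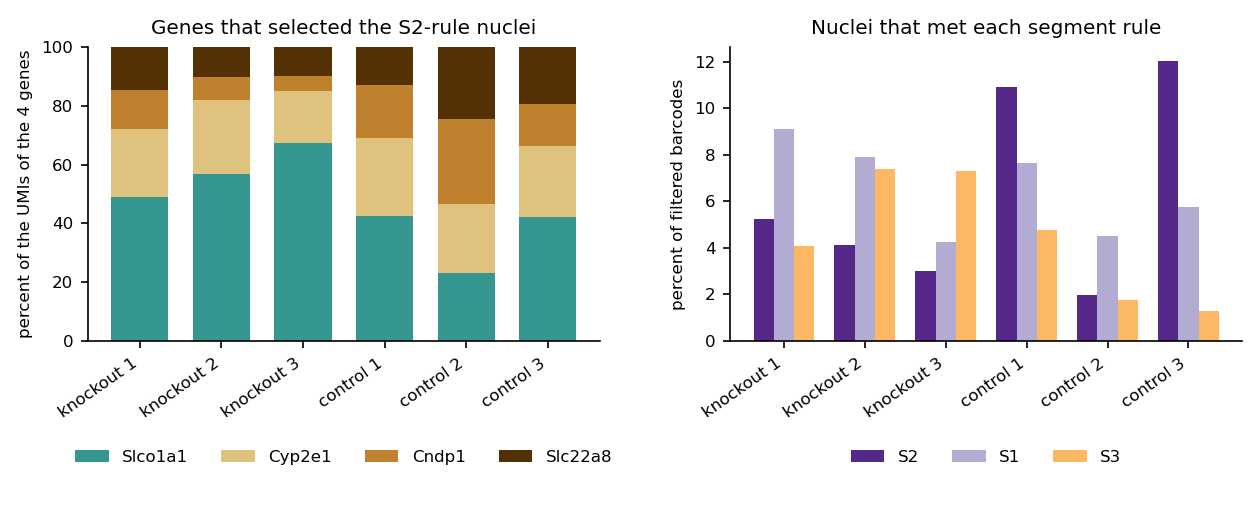
Left, share of each of the 4 rule genes in their summed UMIs in S2-rule nuclei (percent, bars stacked to 100) in each knockout and control library. Right, percent of filtered barcodes that met the S2, S1 or S3 rule in each library, without error bars because each bar is 1 library. Slco1a1 fills a larger part of the bar in each knockout library than in any control library, and the S2 share of the groups overlaps.

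S2-rule nuclei were then set against S1- and S3-rule nuclei of the control libraries, with the library as a block, to show which other genes separate nuclei sorted by the rule. The contrast is the one the rule set, so its counts describe the sorted nuclei, and no gene of the rule is named or counted in a list. A gene was called at an adjusted p under 0.05 (edgeR quasi-likelihood test, Benjamini-Hochberg) and a fold of at least 2. Against S1-rule nuclei, 431 of 9509 genes were called (4.53%), of which 189 were higher (1.99%) and 242 lower (2.54%) in S2-rule nuclei. The counts include 7 genes of the rule. Without control 1, which gave most of the nuclei, 223 were called.

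Among genes higher in S2-rule than in S1-rule nuclei were a chemokine, a fatty acid carrier and an enzyme of carnitine synthesis. Ccl28, the chemokine, had 175, 214 and 415 CPM in S2-rule and 44.8, 94.3 and 121 CPM in S1-rule nuclei of controls 1, 2 and 3 (log2 difference 1.77 ± 0.15 SE, adjusted p = 1.37e-10, edgeR). Cd36, a scavenger receptor that takes up fatty acids, had 362, 163 and 331 CPM in S2-rule and 159, 75.9 and 143 CPM in S1-rule nuclei. Bbox1, the last enzyme of carnitine synthesis, had 93.5, 107 and 60.2 CPM in S2-rule and 21.0, 55.2 and 5.61 CPM in S1-rule nuclei. All 3 genes were higher in S2-rule nuclei of each control library. Atp11a, a lipid flippase of the cell membrane that was on the S3 list, had 1939, 1460 and 2961 CPM in S2-rule and 713, 987 and 904 CPM in S1-rule nuclei. The collagen gene Col19a1 averaged 118 ± 37.0 CPM in S2-rule and 32.8 ± 13.7 CPM in S1-rule nuclei (SD, n = 3 each), and Cntnap5a, a gene of the neurexin family, 489 ± 85.3 and 163 ± 68.4 CPM.

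Genes lower in S2-rule than in S1-rule nuclei included early-tubule transporters. Slc7a7, the basolateral exporter of cationic amino acids, had 131, 107 and 55.0 CPM in S2-rule and 937, 502 and 403 CPM in S1-rule nuclei (log2 difference -2.78 ± 0.16 SE, adjusted p = 2.68e-14, edgeR). Cyp24a1, which inactivates vitamin D, had 18.4, 30.5 and 13.6 CPM in S2-rule and 155.7, 136 and 154 CPM in S1-rule nuclei. Abcc4, an exporter of organic anions and cyclic nucleotides, had 30.4, 45.8 and 19.3 CPM in S2-rule and 290, 147 and 180 CPM in S1-rule nuclei. The values of the S2- and S1-rule nuclei did not overlap for any of these 3 genes. Angpt1, a ligand of a blood vessel receptor, averaged 38.4 ± 3.90 CPM in S2-rule and 273 ± 173 CPM in S1-rule nuclei, and the collagen gene Col8a1 10.5 ± 4.27 and 120 ± 62.9 CPM (SD, n = 3 each).

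The lists by role placed S2-rule nuclei apart from S1 mainly by what they lacked. Of 8 further S1 genes 6 were called lower and none higher, against 2.54% and 1.99% of all 9509 genes. The 6 were Nox4, Slc2a2, Slc34a3, Slc6a19, Slc7a7 and Slc7a8. Slc2a2, the basolateral glucose carrier, had 129, 76.3 and 99.2 CPM in S2-rule and 365, 156.5 and 226 CPM in S1-rule nuclei. Slc6a19, which takes up neutral amino acids from the lumen, had 111, 117 and 95.5 CPM in S2-rule and 382, 281 and 286 CPM in S1-rule nuclei. Both were lower in S2-rule nuclei of all 3 control libraries. Of 8 further S2 genes none was called at the fold of 2, and 6 had a positive and 2 a negative log2 difference. Of these 8, 7 had an unadjusted p under 0.05 in either direction (edgeR), with the smallest p for Slc16a12 and Slc22a12. Slc22a6 stayed below the fold of 2, with 622, 310 and 795 CPM in S2-rule and 346, 311 and 435 CPM in S1-rule nuclei (log2 difference 0.69 ± 0.15 SE, adjusted p = 0.00174, edgeR). In control 2 its 2 values were equal within 1 CPM. Of 8 tested S3 genes 3 were higher (Atp11a, Slc5a10, Slc7a13) and 1 was lower (Gatm).

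By pathway, the counts below stand against 1.99% of all 9509 genes called higher and 2.54% called lower. The amino acid and peptide transport list had 2 of 20 tested genes called higher (Slc6a18, Slc7a13) and 6 called lower. The glucose, phosphate, sodium and acid transport list had 2 of 21 called higher (Slc5a8, Slc5a10) and 3 called lower (Slc13a1, Slc2a2, Slc34a3). In the organic ion list, without the genes of the rule, 0 of 25 tested genes were called higher and 3 lower (Abcc4, Slc22a23, Slc22a29). In a list of this size 0 called higher is near the share of all genes. The list median was 0.23 on the log2 scale, against -0.01 over all genes tested. The cytochrome P450 and conjugation list had 2 of 26 called higher (Adh7, Ugt2b37) and 4 lower (Cyp24a1, Cyp2d26, Gsta2, Gstt1), and the gluconeogenesis and amino acid breakdown list 1 of 30 higher (Bbox1) and 3 lower (Ddc, Gatm, Kynu).

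Against S3-rule nuclei of the control libraries, 590 of 9509 genes were called (6.2%), of which 268 were higher (2.82%) and 322 lower (3.39%) in S2-rule nuclei, 8 of them genes of the rule. The S2-rule nuclei were higher for luminal phosphate, sodium and sulfate carriers and for enzymes of glucose and amino acid metabolism. Slc34a1 had 6330, 4544 and 6727 CPM in S2-rule and 2089, 1711 and 2533 CPM in S3-rule nuclei (log2 difference 1.51 ± 0.11 SE, adjusted p = 8.55e-12, edgeR). Slc9a3, the luminal sodium-proton exchanger, had 442, 315 and 483 CPM in S2-rule and 94.9, 96.5 and 106 CPM in S3-rule nuclei. For both genes the lowest S2-rule value lay above the highest S3-rule value. Without control 1 the test called 346 genes, and S3-rule nuclei of controls 2 and 3 numbered only 67 and 68.

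The glucose, phosphate, sodium and acid transport list had 7 of 21 tested genes called higher and 0 called lower, against 2.82% and 3.39% of all genes. They were Car4, Slc13a1, Slc13a3, Slc26a1, Slc34a1, Slc4a4 and Slc9a3. Slc4a4, which returns bicarbonate to the blood, had 1928, 2951 and 2276 CPM in S2-rule and 889, 1518 and 954 CPM in S3-rule nuclei. The gluconeogenesis and amino acid breakdown list had 7 of 30 called higher, among them Agxt2, Ass1, Bbox1, Bckdhb, G6pc and Kynu, and 3 lower (Aadat, Cbs, Ddc). G6pc, which releases glucose in the last step of gluconeogenesis, had 303, 290 and 192 CPM in S2-rule and 103, 96.5 and 85.8 CPM in S3-rule nuclei. It was higher in S2-rule nuclei of each control library.

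The organic anion carrier Slc22a6 was higher than in S3-rule nuclei, with 622, 310 and 795 CPM in S2-rule and 249, 61.4 and 177 CPM in S3-rule nuclei (log2 difference 1.58 ± 0.18 SE, adjusted p = 5.63e-08, edgeR). Slc16a12, a monocarboxylate and creatine carrier, averaged 190 ± 45.9 and 54.9 ± 5.97 CPM (SD, n = 3 each). These were the 2 of 8 further S2 genes called higher, and Fgf1, a fibroblast growth factor on the same list, was called lower with 435, 499 and 399 CPM in S2-rule and 1977, 2282 and 2185 CPM in S3-rule nuclei. Fgf1 was thus higher in S3-rule nuclei than in the nuclei it had been listed for. In the organic ion list 3 of 25 tested genes were called higher (Slc22a5, Slc22a6, Slc22a23) and 4 lower (Slc22a7, Slc22a26, Slc47a2, Slco4c1). Over all genes 2.82% were called higher and 3.39% lower. Slco4c1, a basolateral organic anion carrier in the rat, had 8.93, 10.2 and 1.41 CPM in S2-rule and 149, 167 and 50.5 CPM in S3-rule nuclei.

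Gramd1b, which moves cholesterol between membranes, had 1001, 1221 and 899.7 CPM in S2-rule and 7577, 8829 and 7563 CPM in S3-rule nuclei (log2 difference -2.92 ± 0.12 SE, adjusted p = 9.19e-18, edgeR). Akr1d1, a steroid reductase, averaged 19.8 ± 11.1 and 190 ± 48.8 CPM, and the vitamin C carrier Slc23a1 180 ± 38.6 and 766 ± 219 CPM (SD, n = 3 each). All 3 were lower in S2-rule nuclei of each control library. Of 8 tested S3 genes 2 were lower (Slc22a7, Slc7a13), and of 8 further S1 genes 4 were higher (Nox4, Slc13a3, Slc4a4, Slc7a8).

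**Figure D2:**
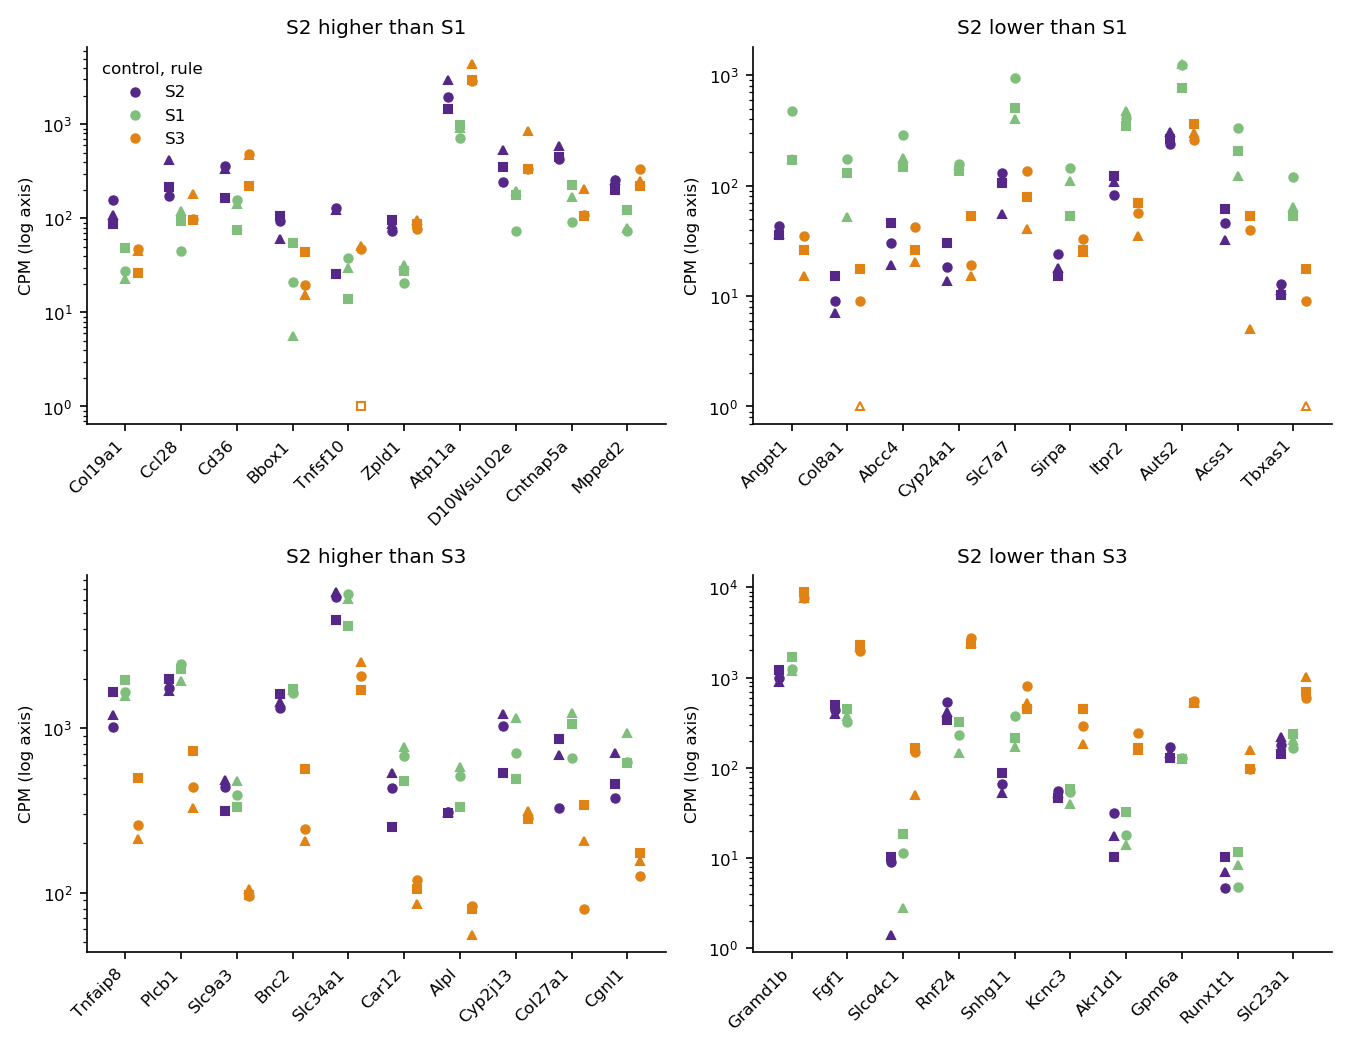
Summed level (CPM, log axis) of the 10 genes with the smallest p in each direction for S2- against S1-rule nuclei (top) and S2- against S3-rule nuclei (bottom). Each point is 1 control library (circle 1, square 2, triangle 3), colours give the rule, and open symbols at 1 stand for values below 1 CPM. Gramd1b, at 899.7 to 1221 CPM in S2-rule and 7563 to 8829 CPM in S3-rule nuclei, shows a wide gap at a high level.

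The plot of segment genes shows that, for genes that set S2-rule nuclei against S3-rule nuclei, the points of S2-rule nuclei lie near those of S1-rule nuclei. For genes lower than in S1-rule nuclei they lie near those of S3-rule nuclei, while some of the higher genes, such as Col19a1 and Cntnap5a, are higher in S2-rule nuclei than under either other rule. The panels share the same S2-rule sums and were drawn for genes picked by p, so this is a description.

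Knockout and control libraries were compared within S2-rule nuclei to ask whether tubule nuclei differ when the deletion is aimed at podocytes. The targeted gene could not check the labels here, since Klf4 had 5 UMIs in knockout and 15 UMIs in control S2-rule nuclei and was not tested. Of 9493 genes 2 were called at an adjusted p under 0.05 (0.0211%, edgeR quasi-likelihood test on sums per library, without a replicate block here and below), with Kcnip4 higher and Glt1d1 lower in knockout libraries (0.0105% each way). At an unadjusted p under 0.05 there were 715 genes (7.53%), of which 321 were higher (3.38%) and 394 lower (4.15%). The libraries of the 2 groups did not overlap for 1325 genes (14%), with knockout above for 761 (8.02%) and below for 564 (5.94%). Without knockout 1 the test called 25 genes, without control 1 it called 5 and without control 3 it called 1.

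Glt1d1, a gene of the glycosyltransferase family, lies on chromosome 5 at 127632262 to 127709374 (mm10, plus strand). It had 24.9, 23.3 and 16.5 CPM in knockout and 251, 229 and 218 CPM in control libraries. The highest knockout value lay below the lowest control value. The log2 change was -3.41 ± 0.23 (SE, n = 3 each, adjusted p = 0.000321, edgeR), and it stayed called in all 16 alternatives. The same direction was measured in S1-rule nuclei, with 9.41, 7.18 and 7.198 CPM in knockout and 80.9, 193 and 85.6 CPM in control libraries, and in S3-rule nuclei, with 68.7, 61.2 and 31.6 CPM and 289, 246 and 338 CPM. The change in S2-rule nuclei differed from that in S1-rule nuclei by 0.21 ± 0.38 and from that in S3-rule nuclei by -1.11 ± 0.31 on the log2 scale (adjusted p of 1 and 0.441, edgeR), so no difference between segments was called. Endothelial nuclei carried it too, at 21.3, 15.0 and 7.52 CPM in knockout and 158, 198 and 142 CPM in control libraries. After thinning to 1000 UMIs, 2.58, 3.40 and 2.22% of S2-rule nuclei of knockout and 21.4, 23.3 and 17.2% of those of control libraries had a UMI of it, against 2.33, 2.44 and 0.662% and 14.7, 11.9 and 15.0% of endothelial nuclei.

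Kcnip4, a calcium-binding partner of potassium channels that is best known from neurons, lies on chromosome 5 at 48389502 to 49524907 (mm10, minus strand). It had 157, 101 and 114 CPM in knockout and 18.9, 25.4 and 16.9 CPM in control libraries. The groups did not overlap. The log2 change was 2.70 ± 0.26 (SE, n = 3 each, adjusted p = 0.00487, edgeR), and it was not called without control 3 (adjusted p = 0.0908) or among S2-rule nuclei with no UMI of the S1 and S3 genes (adjusted p = 0.0768). Its UMIs were unevenly spread over nuclei, and the 24, 2 and 4 knockout nuclei with at least 5 UMIs held 55.6, 34.6 and 72.6% of them. After thinning, 7.66, 7.77 and 6.67% of S2-rule nuclei of knockout and 1.37, 4.11 and 1.59% of those of control libraries had a UMI, against 10.5, 9.76 and 1.99% and 1.53, 3.39 and 4.08% of endothelial nuclei. Endothelial nuclei had it at 229, 80.2 and 48.4 CPM in knockout and 14.5, 33.4 and 41.2 CPM in control libraries. The share of nuclei with a UMI was thus lower in S2-rule than in endothelial nuclei of knockouts 1 and 2, while by CPM S2-rule nuclei were lower in knockout 1 and higher in knockouts 2 and 3. The shares of knockout 2 rest on 206 S2-rule and 82 endothelial nuclei after thinning. Whether S2-rule nuclei expressed Kcnip4 was not tested, nor was the part of free RNA. S1-rule nuclei had 147, 82.6 and 63.0 CPM in knockout and 9.32, 46.0 and 30.9 CPM in control libraries, and S3-rule nuclei 119, 109 and 44.5 CPM and 18.6, 35.1 and 10.1 CPM.

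**Figure D3:**
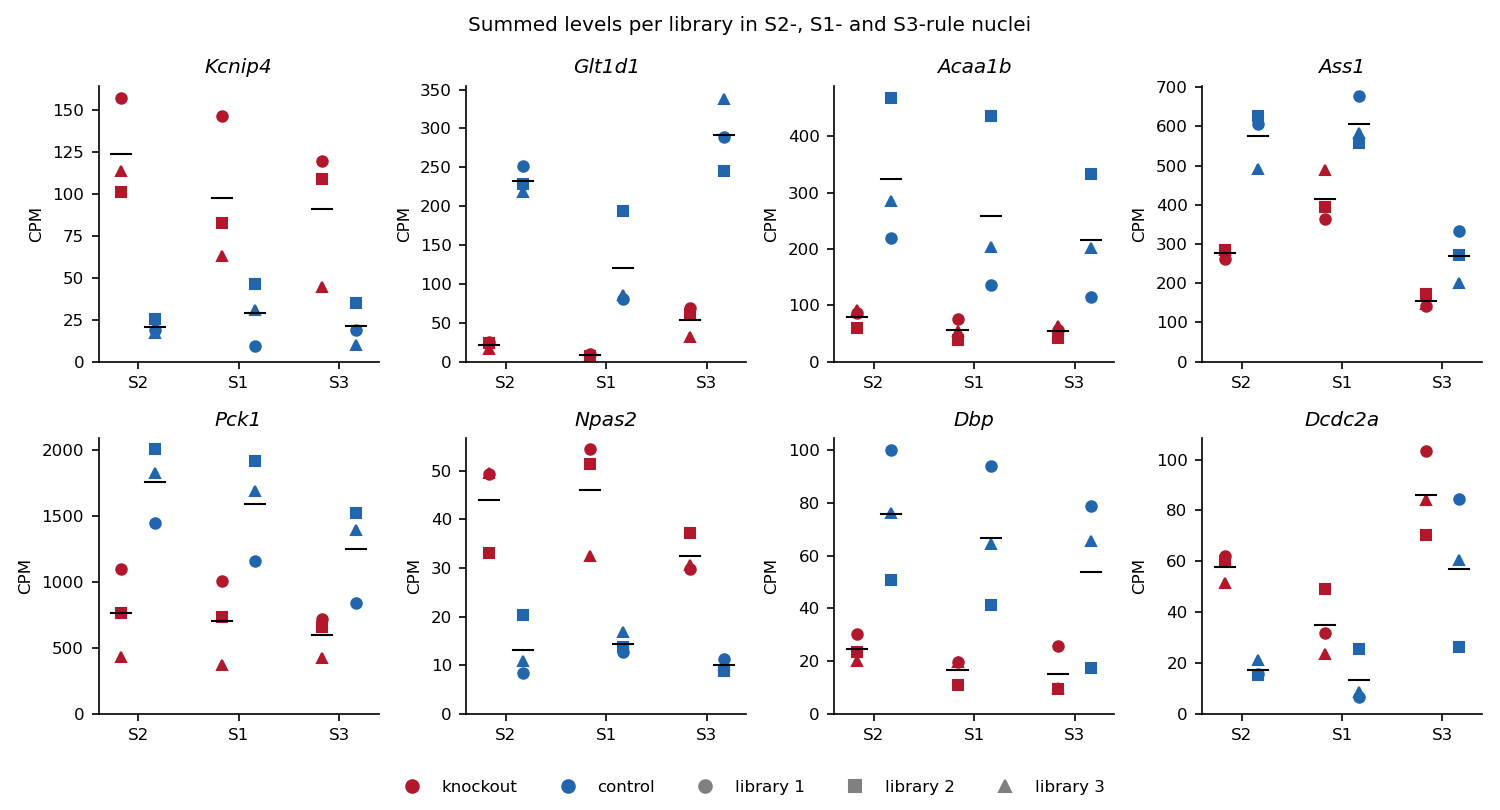
Summed level (CPM) of 8 genes in S2-, S1- and S3-rule nuclei, with knockout libraries (red) left of control libraries (blue), a symbol per library and a line at the mean of 3. Glt1d1 sits at 16.5 to 24.9 CPM in knockout and 218 to 251 CPM in control S2-rule nuclei, and the other rules show the same direction.

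The plot of 8 genes by library sets these 2 beside genes of metabolism, the clock and injury that had small unadjusted p-values and did not pass the adjusted edgeR test. Acaa1b, a thiolase of fatty acid breakdown in peroxisomes, had 86.6, 60.3 and 91.9 CPM in knockout and 219, 468 and 285 CPM in control libraries (log2 change -1.98 ± 0.28 SE, n = 3 each, adjusted p = 0.0692, edgeR). Ass1, an enzyme of arginine synthesis, had 261, 284 and 285 CPM in knockout and 606, 626 and 492 CPM in control libraries (adjusted p = 0.126, edgeR, n = 3 each). Pck1, which commits carbon to gluconeogenesis, had 1098, 766 and 434 CPM in knockout and 1447, 2005 and 1822 CPM in control libraries (adjusted p = 0.298, edgeR, n = 3 each). For all 3 genes the groups did not overlap. DESeq2 called Acaa1b (adjusted p = 3.27e-07) and Ass1 (adjusted p = 0.00107). Endothelial nuclei showed the same order, with Acaa1b at 66.3, 32.6 and 57.0 CPM in knockout and 136, 408 and 187 CPM in control libraries, and Ass1 at 189, 256 and 266 CPM and 510, 464 and 284 CPM.

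Among transporters, Slc13a2, the luminal citrate carrier, had 251, 126 and 71.7 CPM in knockout and 379, 504 and 450 CPM in control libraries (log2 change -1.53 ± 0.36 SE, n = 3 each, adjusted p = 0.253, edgeR). Slc22a4, a carrier of ergothioneine and organic cations, had 191, 183 and 105 CPM in knockout and 377, 260 and 437 CPM in control libraries (adjusted p = 0.247, edgeR, n = 3 each). The groups did not overlap for either gene, and DESeq2 called both (adjusted p = 0.00313 for Slc13a2 and 0.0102 for Slc22a4). The S2 gene Slc22a6 had 526, 356 and 356 CPM in knockout and 622, 310 and 795 CPM in control libraries, and the groups overlapped. Of the 8 further S2 genes none was called by edgeR or DESeq2, 5 had a positive and 3 a negative log2 change, and the median was 0.02, against 0.01 over all 9493 genes.

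Clock genes, which follow the time of day, gave values on both sides. Npas2, a partner of the activator Arntl, had 49.4, 33.1 and 49.6 CPM in knockout and 8.44, 20.4 and 10.8 CPM in control libraries (log2 change 2.05 ± 0.35 SE, n = 3 each, adjusted p = 0.126, edgeR). Arntl itself had 24.5, 15.6 and 34.9 CPM in knockout and 5.29, 10.2 and 11.3 CPM in control libraries. The output factor Dbp had 30.3, 23.3 and 20.2 CPM in knockout and 100.1, 50.9 and 76.2 CPM in control libraries (log2 change -1.69 ± 0.30 SE, adjusted p = 0.146, edgeR, n = 3 each). These 2 activators were thus higher and Dbp lower in each knockout library. Of the 16 tested clock genes 6 had a positive and 10 a negative log2 change (median -0.33), and edgeR called none. In all, 7 of the 16 had an unadjusted p under 0.05 (edgeR), against 7.53% of all genes tested. The summed list overlapped, at 2836, 2606 and 2205 CPM in knockout and 2746, 3292 and 3432 CPM in control libraries. DESeq2 called Npas2 (adjusted p = 0.011) and Dbp (adjusted p = 0.0102). Neither the labels nor the headers give the hour of tissue collection, so genotype and hour cannot be told apart. Endothelial nuclei had Dbp at 29.8, 17.5 and 26.9 CPM in knockout and 96.7, 40.1 and 78.4 CPM in control libraries.

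By list, members of metabolic pathways lay mostly on the lower side in knockout S2-rule nuclei, and edgeR on the 6 sums called none of them. In the gluconeogenesis and amino acid breakdown list 25 of 30 tested genes had a negative and 5 a positive log2 change, with a median of -0.53 against 0.01 over all genes. Of the 30, 14 had an unadjusted p under 0.05 (edgeR), against 7.53% of all genes tested. Summed over its 33 genes the list had 6567, 5618 and 5126 CPM in knockout and 8660, 8915 and 8028 CPM in control libraries. The groups did not overlap. Endothelial nuclei gave 5309, 4517 and 4439 CPM in knockout and 7295, 7718 and 5380 CPM in control libraries for the same genes.

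The fatty acid oxidation and PPARA target list had 28 of 36 tested genes with a negative log2 change (median -0.32). In it 11 of the 36 had an unadjusted p under 0.05 in either direction (edgeR), against 7.53% of all genes tested. The cytochrome P450 and conjugation list had 19 of 25 (median -0.47), the glucose, phosphate, sodium and acid transport list 16 of 20 (median -0.40), the amino acid and peptide transport list 16 of 20 (median -0.33) and the oxidative phosphorylation list 21 of 26 (median -0.34). The summed levels of the groups overlapped for 3 of these lists. The fatty acid list had 9762, 10179 and 10782 CPM in knockout and 11755, 13012 and 10742 CPM in control libraries. The P450 list had 7064, 7480 and 5505 CPM in knockout and 9489, 7328 and 8348 CPM in control libraries. The oxidative phosphorylation list had 2102, 1906 and 2003 CPM in knockout and 3219, 1817 and 1980.5 CPM in control libraries, so only control 1 stood above the knockout libraries. The sums did not overlap for glucose, phosphate, sodium and acid transport, at 11961 to 13443 CPM in knockout and 13892 to 17238 CPM in control libraries, or for amino acid and peptide transport, at 3500.1 to 3950.3 CPM and 4430.4 to 4959 CPM. In endothelial nuclei the P450 list had 4820, 4821 and 3661 CPM in knockout and 7212, 6256 and 5344 CPM in control libraries, and the glucose list 10395, 10025 and 9104 CPM and 12777, 12039 and 11081 CPM. The fatty acid list overlapped there too, at 7057 to 7813 CPM in knockout and 6883 to 10745 CPM in control libraries. The organic ion transport list was even, with 11 tested genes positive and 10 negative (median 0.01). The smallest edgeR adjusted p in these lists was 0.0692. DESeq2 called 2 lower in each of the fatty acid, P450 and gluconeogenesis lists and 1 lower in each of the glucose and organic ion transport lists. Over all 9493 genes it called 23 lower and 29 higher. Cyp4b1, a P450 that is higher in male mouse kidney, had 1411, 1524 and 1058 CPM in knockout and 2412, 2061 and 2515 CPM in control libraries (adjusted p = 0.308 with edgeR and 0.0245 with DESeq2, n = 3 each).

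The tubule injury and repair list lay on the other side. Only 13 of its 30 genes passed the filter on low counts, which favours genes high in one group, so the sum over all 30 is given. It was 1456, 1250 and 1543 CPM in knockout and 943, 641 and 1030 CPM in control S2-rule nuclei, and 1644, 1479 and 1649 CPM in knockout and 1034, 730 and 1220 CPM in control endothelial nuclei. The list was higher in each knockout library, and edgeR called no member. Dcdc2a, a gene of the doublecortin family, had 62.1, 60.3 and 51.4 CPM in knockout and 15.6, 15.3 and 21.2 CPM in control libraries (log2 change 1.67 ± 0.26 SE, n = 3 each, adjusted p = 0.0915, edgeR). Vcam1, an adhesion protein of injured tubule cells, had 29.2, 11.7 and 9.19 CPM in knockout and 1.65, 0 and 1.41 CPM in control libraries (adjusted p = 0.126, edgeR, n = 3 each), at 81, 6 and 5 UMIs against 10, 0 and 3 UMIs. DESeq2 called Dcdc2a (adjusted p = 0.0117). Vcam1 stood at 48.2, 22.6 and 20.4 CPM in knockout and 5.10, 4.45 and 11.96 CPM in control endothelial nuclei. Those values were above the S2-rule values in each library. Dcdc2a stood at 64.9, 37.6 and 41.9 CPM in knockout and 20.5, 14.5 and 22.6 CPM in control endothelial nuclei. Whether S2-rule nuclei expressed Vcam1 or Dcdc2a was not tested. The endocytic adaptor Dab2 had 4014, 5816 and 5986 CPM in knockout and 2788, 2152 and 3340 CPM in control libraries (adjusted p = 0.376 with edgeR and 0.0348 with DESeq2, n = 3 each). Nuclei with a UMI of Havcr1, the best known injury marker, had been removed by the rule.

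**Figure D4:**
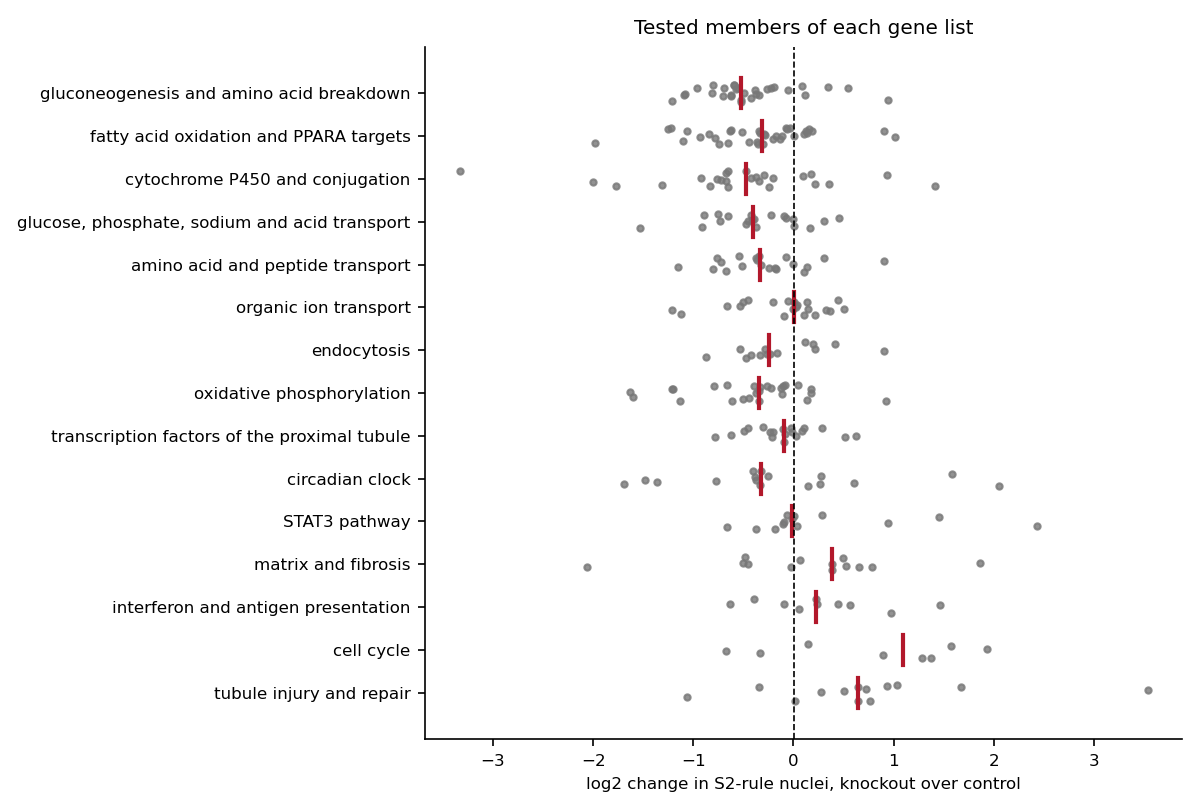
Log2 change (knockout over control, S2-rule nuclei) of each tested member of 15 gene lists, 1 grey point per gene, with the list median in red and the median of all 9493 genes as a dashed line. Points of the first 5 lists lie mostly left of the dashed line, with medians of -0.53 to -0.32, while organic ion transport is centred at 0.01.

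The plot of the lists shows single genes far from their list medians on both sides, and only genes that passed the filter on low counts are drawn. Marker sums of other cell types in S2-rule nuclei overlapped between the groups for the podocyte list, at 516 to 910 CPM in knockout and 642 to 1023 CPM in control libraries, and for the thick ascending limb list, at 780 to 1185 CPM and 827 to 1371 CPM. They also overlapped for the endothelial list, at 156.2 to 236 CPM and 111 to 280 CPM, and for the immune list, at 40.4 to 96.3 CPM and 35.6 to 57.4 CPM.

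A knockout change was called different between S2- and S3-rule nuclei for 7 of 9509 genes (0.0736%), 5 with a higher (0.0526%) and 2 with a lower change (0.021%) in S2-rule nuclei. Chrm3, a muscarinic acetylcholine receptor, had 341, 412 and 549 CPM in knockout and 162, 178 and 170 CPM in control S2-rule nuclei. In S3-rule nuclei it had 559, 572 and 703 CPM in knockout and 495, 676 and 676 CPM in control libraries. It was thus above control in S2-rule nuclei of each knockout library, while the S3-rule groups overlapped, and the changes differed by 1.19 ± 0.20 on the log2 scale (SE, n = 3 each, adjusted p = 0.00395, edgeR). Endothelial nuclei had Chrm3 at 443, 689 and 561 CPM in knockout and 299.7, 325 and 457 CPM in control libraries. Fgf1 had 580, 535 and 687 CPM in knockout and 435, 499 and 399 CPM in control S2-rule nuclei, and 1493, 1452 and 1705 CPM and 1977, 2282 and 2185 CPM in S3-rule nuclei (difference 0.87 ± 0.15, n = 3 each, adjusted p = 0.00503, edgeR). In endothelial nuclei Fgf1 had 520, 559 and 688 CPM in knockout and 538, 556 and 311 CPM in control libraries.

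For Auts2, a regulator of transcription, the gap between the groups lay in S3-rule nuclei, while the S2-rule groups overlapped. It had 275, 299 and 182 CPM in knockout and 237, 265 and 309 CPM in control S2-rule nuclei, and 634, 753 and 602 CPM and 260, 360 and 303 CPM in S3-rule nuclei (difference -1.32 ± 0.21, SE, n = 3 each, adjusted p = 0.00383, edgeR). Endothelial nuclei held more Auts2 than S2-rule nuclei in all 6 libraries, at 536, 582 and 415 CPM in knockout and 470, 494 and 368 CPM in control libraries. Alpk1, a kinase that senses a bacterial sugar, had 10.5, 5.83 and 3.67 CPM in knockout and 5.62, 0 and 3.29 CPM in control S2-rule nuclei, and 16.4, 11.97 and 16.8 CPM and 75.4, 52.7 and 50.5 CPM in S3-rule nuclei. Here too the gap between the groups lay in S3-rule nuclei. The S2-rule values of Alpk1 rest on only a few UMIs in knockouts 2 and 3, whose S2-rule sums held 514275 and 544265 UMIs in all. Arrdc3, an arrestin family gene, had 49.1, 38.9 and 42.3 CPM in knockout and 81.6, 132 and 64.4 CPM in control S2-rule nuclei, and 84.6, 82.5 and 61.3 CPM and 51.8, 61.4 and 30.3 CPM in S3-rule nuclei. Its groups did not overlap in S2-rule nuclei, where the knockout libraries were lower.

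When both libraries numbered 1 were left out, 0 genes were called, with Nxpe3 not tested in that setting. Of the 7 genes 2 were called without control 1 alone, and 11 genes, 3 of them shared, were called without knockout 1. Against S1-rule nuclei, 0 of 9509 knockout changes were called different by edgeR (0%), and 284 had an unadjusted p under 0.05 (2.99%). Without knockout 1 that comparison called 3 genes.

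**Figure D5:**
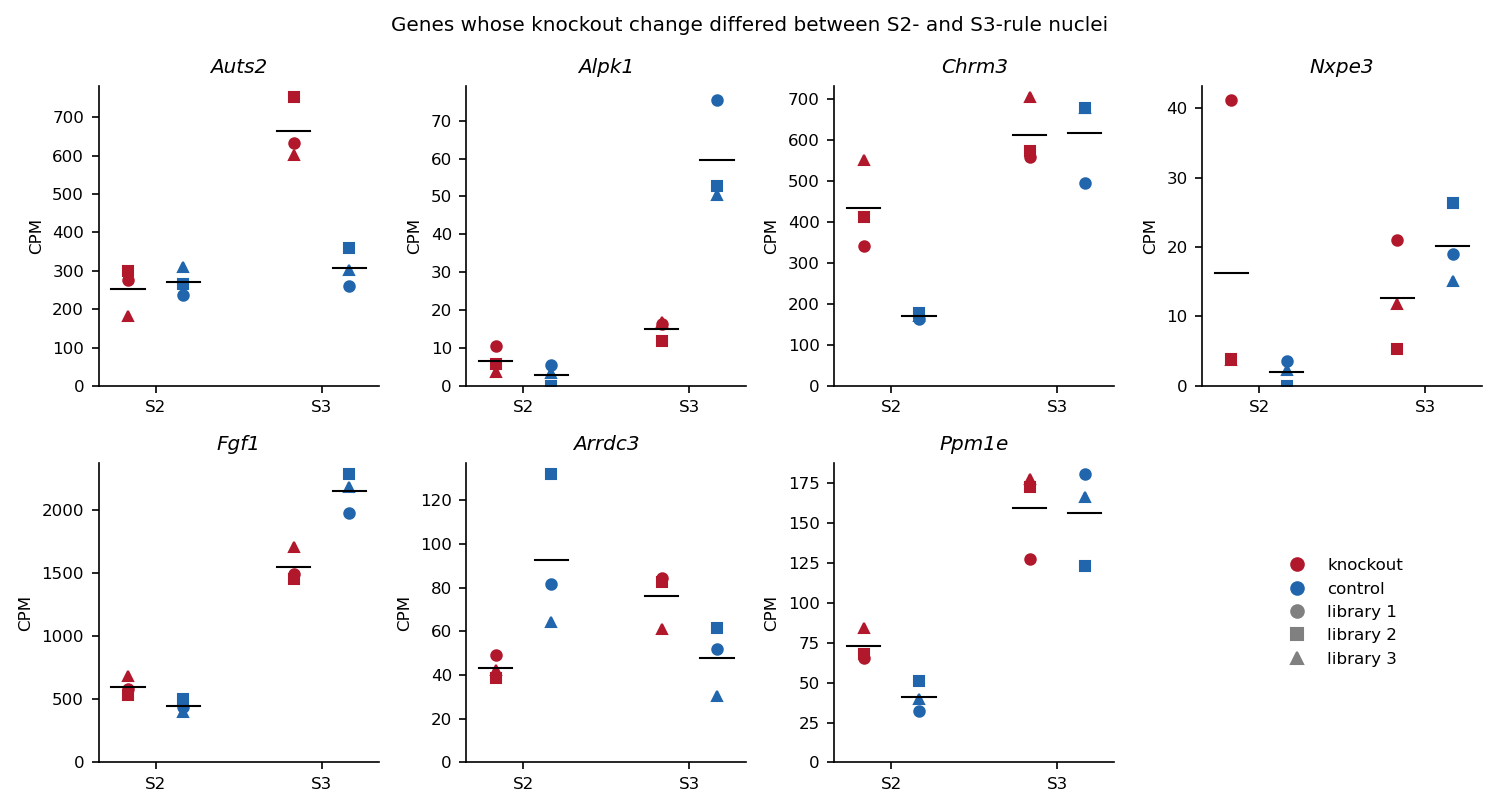
Summed level (CPM) of the 7 genes whose knockout change was called different between S2- and S3-rule nuclei, with knockout libraries (red) left of control libraries (blue), a symbol per library and a line at the mean of 3. In S2-rule nuclei Chrm3 sits at 341 to 549 CPM in knockout and 162 to 178 CPM in control libraries, and Nxpe3 is high only in knockout 1 (41.1 CPM).

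The plot of the 7 genes also shows Ppm1e, a phosphatase, at 65.7, 68.1 and 84.5 CPM in knockout and 32.4, 50.9 and 39.5 CPM in control S2-rule nuclei, with S3-rule values of the groups that overlap. Nxpe3 had 41.1, 3.89 and 3.67 CPM in knockout and 3.64, 0 and 2.35 CPM in control S2-rule nuclei, so knockout 1 alone stood apart there. By edgeR, no knockout change in S2-rule nuclei alone was called for any of the 5 of these genes that were tested there.

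A neighbouring pair of genes on chromosome 5 had no UMI in knockout S2-rule nuclei. The zinc finger gene Zfp68 had 0 UMIs in knockout and 97, 2 and 33 UMIs in controls 1, 2 and 3, in all 132. With the knockout total set to a floor of 3 UMIs, it was at least 20.1-fold lower over the pooled libraries. It was not called (adjusted p = 0.0708, edgeR, n = 3 each). A430033K04Rik had 0 UMIs in knockout and 103, 1 and 39 UMIs in controls 1, 2 and 3, in all 143. By the same floor it was at least 21.8-fold lower, but it did not pass the filter on low counts and was not tested. The 2 genes start 3098 bases apart, and over all filtered barcodes of every cell type they had 5 and 13 UMIs in knockout and 1383 and 1231 UMIs in control libraries. Y-linked transcripts were present in S2-rule nuclei of all 6 libraries, with Uty at 317, 426 and 391 CPM in knockout and 284, 290 and 294 CPM in control libraries.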

How the data were processed

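Nuclei were isolated with detergent from pieces of perfused kidney kept in RNALater and run on the 10x Chromium platform, per the labels' protocols. The deposited values are raw UMI counts per gene and barcode, made by the authors, and the file headers name Cell Ranger 3.1.0. The submitters' processing notes give build mm10 and name Seurat without a role. The 3 knockout and 3 control libraries were grouped by their genotype labels.

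From these counts, nuclei that met each segment rule were summed per library. Genes with low counts were removed with edgeR's filterByExpr, sums were scaled by TMM, and edgeR 4.0.16 in R 4.3.3 fitted quasi-likelihood models with Benjamini-Hochberg adjustment over all genes tested. Knockout and control were compared on 6 sums. The segments were compared on 18 sums with the library as a block, and interaction terms tested whether knockout changes differed between segments. SE is the size of the log2 change divided by the square root of F. CPM values are counts per 1000000 UMIs of the summed nuclei. Rules, lists and intervals used Python 3.11.15, numpy 2.4.6, pandas 2.3.3 and scipy 1.17.1. The tests were also run on simulated counts with the same spread for every gene and libraries that differed only in depth and planted changes. That setting is simpler than these libraries, so it does not measure error rates here. DESeq2 1.42.0, other scalings and filters, stricter rules, thinned nuclei and left-out libraries served as alternatives.

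Named genes were the 10 or 12 with the smallest p in each direction among called genes, without clone names and genes of the rule, up to 6 per interaction, up to 4 called members of each list or otherwise the 2 with the smallest p, the 10 most abundant, and fixed genes such as Klf4, sex-linked and S2 genes. Other list members were added after their values were seen. The members and the 36 lists were chosen with earlier results of these data known. Total depth was 8270961 to 62016616 UMIs per library.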

Additional observations from a re-analysis of the deposited data

Results flagged for a closer look

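In 7 genes the knockout change differed between S2-rule and S3-rule nuclei by the test of the difference itself (edgeR, adjusted p-values of 0.00383 to 0.0164, 3 libraries per group). The difference, as the log2 change in S2-rule nuclei minus that in S3-rule nuclei, was 2.83 for Alpk1, 1.19 for Chrm3, 3.11 for Nxpe3, 0.87 for Fgf1 and 1.17 for Ppm1e. It was -1.32 for Auts2 and -1.53 for Arrdc3. Of the alternatives run for each gene, Chrm3 was called in 9 of 10, Fgf1 and Auts2 in 8 of 10, Ppm1e in 7 of 10, Alpk1 and Arrdc3 in 6 of 10 and Nxpe3 in 6 of 9. The value for Nxpe3 ranged over its alternatives between 1.35 and 3.601. Alpk1 and Nxpe3, with the largest differences, rested on only a few UMIs in S2-rule nuclei of knockouts 2 and 3 and had none in control 2. S3-rule nuclei of controls 2 and 3, which enter each of these differences, numbered 67 and 68.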

How the results depend on the processing

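Against the 2 genes called between knockout and control S2-rule nuclei, DESeq2 called 52 (29 higher, 23 lower), no filter on low counts 251 (98 higher, 153 lower) and the libraries numbered 2 and 3 alone 35 (10 higher, 25 lower). The count ranged between 1 and 25 when single libraries were left out. Leaving out the deepest 5% of nuclei and those with a UMI of a defining gene of another class gave 4, and nuclei with S1 and S3 sums of 0 gave 3, 1 of them shared. Both of these settings were chosen after seeing the data. The planned doublet setting left 1 to 28 nuclei per library and was not run. The cause of these changes was not tested.

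Same-numbered libraries correlated at 0.428, 0.0727 and 0.159 after each group was centred. The closest control library was control 1 for knockout 1 and control 3 for knockouts 2 and 3, so the numbers matched in part. No label says what the numbers mark, and a shared batch was not tested. With the number as a replicate block 90 genes were called (40 higher, 50 lower), Kcnip4 and Glt1d1 among them. The block also called genes that edgeR without it did not, such as Acaa1b, Cyp2a4, Ass1, Slc13a2, Dcdc2a, Vcam1, Npas2 and Dbp.

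Without both libraries numbered 1, S2- against S1-rule nuclei gave 209 calls and S2- against S3-rule nuclei 335, and single left-out libraries gave 223 to 517 and 346 to 650. Knockout changes that differed from S1-rule nuclei numbered 1 without the filter, 1 without both libraries numbered 1 and 0 to 3 without single libraries. Those that differed from S3-rule nuclei numbered 32 without the filter, 0 without both libraries numbered 1, 4 with rule sums of 6 or more and 2 to 11 without single libraries.

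Of 1411 values of 111 results on named genes, 1279 kept direction and call, 21 lost the call, 71 gained it and 40 changed sign. The sign changes were all in knockout against control and are given as log2 changes. Without both libraries numbered 1, Slc22a7 was at 0.28, Slc22a2 at -0.021, Slc47a1 at -0.065, Kdm5d at 0.011 and Bbox1 at -2.14 (adjusted p = 0.0494, edgeR). With the replicate block, Slc22a2 was at -0.024, Nudt19 at -0.028 and Bbox1 at -0.36. Without the filter, Slc22a2 was at -0.037, Slc47a1 at -0.0081 and Nudt19 at -0.034. Upper-quartile scaling put Slc22a2 at -0.0095. Without nuclei holding defining genes of other classes Slc22a2 was at -0.030. With S2 sums of 6 or more, Slc47a1 was at -0.023 and Kdm5d at 0.031. With at most 1% mitochondrial UMIs, Slc47a1 was at -0.0080 and Bbox1 at -0.012. Thinned nuclei put Kdm5d at 0.031. Nuclei with S1 and S3 sums of 0 put Slc16a12 at 0.011 and Nudt19 at -0.100. Without single libraries, log2 changes ranged between -2.36 and 0.48 for Bbox1 (adjusted p = 0.0495 without knockout 1, edgeR), -0.11 and 0.39 for Cyp2j13, -0.038 and 0.28 for Eif2s3y, -2.09 and 0.0075 for Kap, -0.23 and 0.071 for Kdm5d, -0.30 and 0.38 for Nudt19, -0.35 and 0.14 for Slc16a12, -0.17 and 0.68 for Slc22a12, -0.12 and 0.15 for Slc22a2, and -0.091 and 0.13 for Slc47a1.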
